A study of Mus musculus with 6 samples.

Results

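The genes described are 10 members of vascular endothelial growth factor (VEGF) and angiopoietin signaling, chosen by name from the roles they are known for: the growth factors Vegfa, Vegfb, Angpt1, Angpt2 and Pdgfb, the receptors Kdr, Flt1, Tek and Tie1, and the inhibitor Serpinf1. Earlier results of these data were known at that choice. All 10 were found among the 19401 genes listed in the retinal transcriptome of 5XFAD mice. All 10 also had enough reads to be among the 15537 genes tested. RNA sequencing was carried out on 6 libraries, 3 of control mice and 3 of mice treated with efavirenz (EFV), an anti-HIV drug given here at a low dose. Both groups were 5XFAD F1 males on the B6SJL background, hemizygous for mutant human amyloid precursor protein and mutant human presenilin 1, so the transgenes were common to both and no non-transgenic library entered the comparison. EFV was added to the drinking water from 3 to 9 months of age, at 0.08 mg/kg body weight according to the labels (the methods of the study give a slightly higher daily dose), and control mice received the Tween 80 vehicle. Each library was a pool of 1 retina plus retinal pigment epithelium (RPE) per mouse from 5 to 6 mice killed at 9 months, so the replicates are pools and the spread between single mice was averaged within them.

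VEGF-A and VEGF-B are secreted proteins that bind receptor tyrosine kinases on endothelial cells. Kdr (VEGFR2) carries most of the growth signal of VEGF-A, whereas Flt1 (VEGFR1) binds both ligands tightly and acts in part as a decoy. The angiopoietins act through Tek (Tie2): angiopoietin-1 activates it and keeps vessels tight, angiopoietin-2 often opposes this, and Tie1 is a partner receptor that modulates Tek. Endothelial cells release PDGF-B to hold pericytes on the vessel wall, and Serpinf1 encodes pigment epithelium-derived factor (PEDF), which restrains vessel growth and is made by the RPE among other cells. In the retina VEGF-A comes largely from Müller cells, the RPE and neurons, and the pathway is the target of drugs for neovascular disease of the macula and retina.

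The values of Vegfa pool isoforms that differ, among other places, in a pair of alternative coding exons. The first coding stretch also differs, with 600 bases in 5 of the 8 coding Vegfa transcripts and 66 bases in 3, and is not printed. The pair is shown because it encodes the basic, heparin-binding stretch that holds VEGF-A near the cell. A gene-level count also cannot say which form was present. The sequences were read 5′ to 3′ on the minus strand from GENCODE transcripts of build GRCm38, the assembly also called mm10. The exon at chr17:46022277-46022348 has 72 bases and is present in 3 of the 8 coding Vegfa transcripts of that annotation. A further transcript has a shorter form of 54 bases, and capitals mark the 18 bases that this form lacks.
Vegfa exon of 72 bases: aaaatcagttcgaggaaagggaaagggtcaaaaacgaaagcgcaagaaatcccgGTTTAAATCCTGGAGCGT
The next exon, at chr17:46020991-46021122, has 132 bases and is present in 5 of the 8 transcripts. It has no shorter form there and is printed in lower case throughout.
Vegfa exon of 132 bases: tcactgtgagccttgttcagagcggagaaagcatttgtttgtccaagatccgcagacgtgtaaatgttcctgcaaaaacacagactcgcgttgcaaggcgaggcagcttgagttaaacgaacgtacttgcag

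The libraries held between 23455167 and 24590278 expected counts (reads assigned to genes by RSEM) and listed 17843 to 18100 genes each. No pair of libraries was alike within counting noise, the chi-square per degree of freedom running from 5.47 to 13.7. Müller cell markers were present in every library, with Glul, the glutamine synthetase of these cells, between 775 and 813 FPKM (fragments scaled to transcript length and to the size of the library). The summed FPKM of 11 RPE markers was lowest in control replicate 2 at 82.7 and reached 186 in EFV replicate 2, and 10 of these 11 markers had a higher mean with EFV. That of 8 lens markers was 928.8 in control replicate 3 against 9.99 to 37.9 in the other libraries. Of all genes tested, 0% (0 of 15537) passed an adjusted p of 0.05 by edgeR's quasi-likelihood test, 3.04% (472; 1.49% higher and 1.55% lower) passed an unadjusted p of 0.05, and 8.14% (1264) had groups that did not overlap.

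The 10 genes spanned a 221-fold range of FPKM, a unit that divides by transcript length and so allows levels of different genes to be compared. Vegfa was the highest at 58.3 ± 4.03 FPKM (SD, n = 6 libraries), above 93.6% of the genes tested. Vegfb followed at 42.4 ± 2.09 FPKM, Kdr at 29.7 ± 2.60 FPKM and Flt1 at 10.7 ± 0.401 FPKM. These 4 genes of the VEGF system stood well apart from the others. Serpinf1 was next at 2.03 ± 0.168 FPKM, 5.25 times below Flt1, and then came Tek at 1.28 ± 0.0873 FPKM. Pdgfb at 1.14 ± 0.148 FPKM and Angpt2 at 1.11 ± 0.165 FPKM lay side by side. Tie1 at 0.762 ± 0.0781 FPKM and Angpt1 at 0.263 ± 0.0393 FPKM were the lowest, Angpt1 lying above only 3.59% of the genes tested. In each step of this order the higher gene was above the lower one in 6 of 6 libraries with no overlap of their ranges, except between Tek and Pdgfb (5 of 6 libraries) and between Pdgfb and Angpt2 (3 of 6 libraries), whose ranges overlapped.

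**Figure D1:**
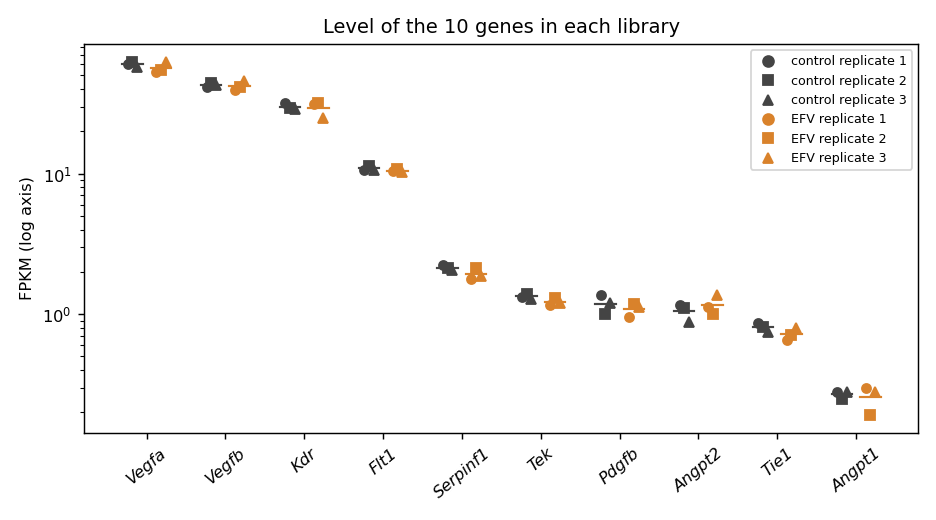
FPKM (log axis) of the 10 genes in each library, ordered by mean level; points are libraries, with the replicate given by the symbol, and short lines are group means. Vegfa at 58.3 FPKM and Angpt1 at 0.263 FPKM mark the ends of the range, and the control (grey) and EFV (orange) points overlap for every gene.

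The receptors were unequal against the general markers of endothelium. The 16 endothelial markers had a median of 1.66 FPKM, and the most abundant, Ly6c1, a surface protein of endothelial cells, was at 10.5 FPKM. Kdr was 17.9 times the median marker and above all 16 of them, whereas Flt1 was 6.43 times the median and also above all 16. Tek at 0.771 times the median and Tie1 at 0.459 times the median were within the range of the markers, above 8 and 5 of the 16. Kdr is known to be made by some retinal neurons as well as by endothelium, and these pooled tissues cannot assign its reads to a cell type.

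None of the 10 genes passed the test for a change with EFV. At an adjusted p of 0.05, 0 of 10 passed by edgeR (background 0%), at an unadjusted p of 0.05 again 0 of 10 (background 3.04%), and DESeq2 gave 0 of 10 by both thresholds. The groups of libraries overlapped for all 10 in normalised counts (background of groups that do not overlap, 8.14%, of which 3.95% higher and 4.18% lower). The mean was lower with EFV for 9 of the 10, all but Angpt2, with a median log2 fold change of -0.09, against 0.0012 for all genes tested, of which 49.5% were lower. All 10 log2 fold changes, as EFV over control, had the same adjusted p of 0.999 by edgeR. For the VEGF ligands and receptors Vegfa, Vegfb, Kdr and Flt1, the 95% interval stayed within a 1.3-fold change either way, and for all 10 it stayed within a 1.6-fold change. In pooled tissue, fewer cells of a type and less RNA per cell cannot be told apart, which holds for every difference given here.

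**Figure D2:**
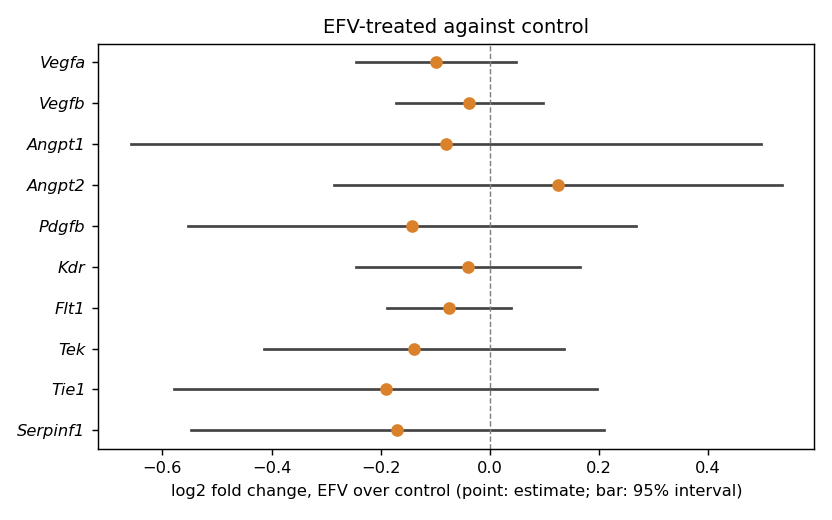
Log2 fold change of EFV-treated over control for the 10 genes, in order of role; points are edgeR estimates and bars their 95% intervals, n = 3 libraries per group. All 10 bars cross 0, from the narrow Flt1 interval (-12.3% to 2.73%) to the wide Angpt1 interval (-36.6% to 41.1%).

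Levels per library are given in FPKM and fold changes come from normalised counts, so libraries that lie close can trade places between the scales. Among the ligands, Vegfa (Entrez 22339, chr17:46016993-46032377), the main growth and permeability factor of vessels, was at 60.1, 62.1 and 57.3 FPKM in control replicates 1, 2 and 3 and at 53.0, 54.4 and 62.7 FPKM in EFV replicates 1, 2 and 3. EFV replicates 1 and 2 were below every control library and EFV replicate 3 was above them all. The log2 fold change was -0.10 (SE 0.07), or -6.61% with a 95% interval of -15.7% to 3.43%, which did not pass the test. Vegfa was the only member to pass an unadjusted p of 0.05 when 1 library was left out: without EFV replicate 3 its log2 fold change was -0.17, with an unadjusted p of 0.0172 and an adjusted p of 0.998 by edgeR. It shrank in size without EFV replicate 1, to -0.055, and without control replicate 2, to -0.066, with unadjusted p by edgeR of 0.449 and 0.392.

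Vegfb (Entrez 22340, chr19:6982472-6987651), a ligand of Flt1 that does little to start vessel growth, was at 41.3, 44.0 and 42.7 FPKM in the controls and at 39.6, 41.4 and 45.4 FPKM with EFV. The EFV libraries spanned the control range on both sides. Its log2 fold change was -0.04 (SE 0.06), with an interval of -11.3% to 6.99%, and it came to 0.0054 without EFV replicate 1.

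Angpt1 (Entrez 11600, chr15:42424667-42676977), the ligand that activates Tek, rested on 20 to 31 counts per library. It was at 0.28, 0.25 and 0.28 FPKM in the controls and at 0.30, 0.19 and 0.28 FPKM with EFV, so that both the lowest and the highest library were EFV-treated. The log2 fold change was -0.08 (SE 0.26), and its interval of -36.6% to 41.1% was the widest of the 10. The spread between libraries, 13.5% of the mean in normalised counts, was under the 19.2% that counting alone gives at this depth.

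Angpt2 (Entrez 11601, chr8:18690263-18741562), which is made by activated endothelium and can block Tek, was at 1.17, 1.11 and 0.88 FPKM in the controls and at 1.12, 1.00 and 1.37 FPKM with EFV. Control replicate 3 was the lowest library and EFV replicate 3 the highest, and the other libraries lay between them. It was the only member with a higher mean with EFV, the log2 fold change being 0.12 (SE 0.18) with an interval of -17.9% to 44.9%. Without EFV replicate 3 the difference was -0.0040.

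Pdgfb (Entrez 18591, chr15:79995865-80024614), the endothelial signal to pericytes, was at 1.37, 1.00 and 1.19 FPKM in the controls and at 0.96, 1.18 and 1.13 FPKM with EFV. Control replicate 1 was the highest, and control replicate 2 lay close to the lowest, EFV replicate 1. Between groups the log2 fold change was -0.14 (SE 0.18), with an interval of -31.9% to 20.3%. With the RPE marker level of each library as a covariate it was -0.33 with an unadjusted p of 0.147 and an adjusted p of 1.00 by edgeR. It was -0.032 without control replicate 1, -0.058 without EFV replicate 1 and -0.25 without control replicate 2.

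Among the receptors, Kdr (Entrez 16542, chr5:75932827-75979072) was at 31.7, 29.5 and 28.7 FPKM in the controls and at 31.5, 31.8 and 25.1 FPKM with EFV. EFV replicate 3 was the lowest of the 6 libraries and EFV replicate 2 the highest. The log2 fold change was -0.04 (SE 0.09), with an interval of -15.6% to 12.1%, and was 0.07 without EFV replicate 3. The spread of Kdr between libraries was 9.11% of the mean against a counting error of 1.61%, and was the widest among the 4 abundant members.

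Flt1 (Entrez 14254, chr5:147561604-147726438) was at 10.6, 11.4 and 10.7 FPKM in the controls and at 10.4, 10.7 and 10.3 FPKM with EFV. EFV replicates 1 and 3 were below every control, and EFV replicate 2 was within the control range. The difference between groups on the log2 scale was -0.07 (SE 0.05), with an interval of -12.3% to 2.73%, the narrowest of the 10. The files give a single transcript for Flt1, so the membrane receptor and the soluble form that traps VEGF were not separated.

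Tek (Entrez 21687, chr4:94739086-94874976), the angiopoietin receptor, was at 1.33, 1.39 and 1.29 FPKM in the controls and at 1.16, 1.31 and 1.19 FPKM with EFV. EFV replicates 1 and 3 were below all controls and EFV replicate 2 among them. For Tek the log2 fold change was -0.14 (SE 0.12), with an interval of -25.0% to 9.93%. Tie1 (Entrez 21846, chr4:118471191-118489849), its partner, was at 0.87, 0.81 and 0.74 FPKM in the controls and at 0.65, 0.71 and 0.79 FPKM with EFV. Here EFV replicates 1 and 2 were below the controls and EFV replicate 3 was not. Tie1 had a log2 fold change of -0.19 (SE 0.17) with an interval of -33.0% to 14.6%. The spread of Tek and of Tie1 between libraries, 7.79% and 10.5% of the mean, was under the counting error of 8.35% and 11.9%.

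Serpinf1 (Entrez 20317, chr11:75410029-75422623), the gene of PEDF, was at 2.23, 2.13 and 2.05 FPKM in the controls and at 1.79, 2.12 and 1.87 FPKM with EFV. EFV replicates 1 and 3 were below the controls and EFV replicate 2 within their range. The log2 fold change was -0.17 (SE 0.17), with an interval of -31.6% to 15.6%. Because the RPE is a known source of PEDF, the RPE markers stand beside this value: their summed FPKM was 158, 82.7 and 156 in the controls and 124, 186 and 179 with EFV. The most abundant of them, Ptgds, was at 97.9, 52.0 and 99.2 FPKM in the controls and 71.2, 119 and 111 FPKM with EFV. Rpe65 was at 4.65, 2.35 and 5.69 FPKM and at 6.05, 6.59 and 6.69 FPKM. The markers thus did not all order the libraries alike, and the sum leans on Ptgds. The library with the fewest RPE marker reads, control replicate 2, was not low in Serpinf1, and with the RPE marker level as a covariate the log2 fold change was -0.18. The part of RPE content in this difference was not tested beyond these values.

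Most of the lower means shared their lowest library. EFV replicate 1 was the lowest library for 6 of the 10 genes in normalised counts (Vegfa, Vegfb, Pdgfb, Tek, Tie1 and Serpinf1). Over all genes tested it was the lowest for 17.0%. It was the highest for Angpt1, and EFV replicate 3 was the lowest for Kdr and Flt1. Without EFV replicate 1 the log2 fold change was -0.055 for Vegfa, 0.0054 for Vegfb and -0.058 for Pdgfb. It was then -0.10 for Tek, -0.12 for both Tie1 and Serpinf1, -0.20 for Angpt1, -0.085 for Kdr and -0.068 for Flt1. Control replicates 1 and 2 were each lowest for 0 of 10 (14.7% and 17.96% of all genes) and were highest for 3 and 4 of 10 (13.9% and 18.1% of all genes). EFV replicate 1 was also lowest in the endothelial markers, whose mean log2 CPM (counts scaled to the size of the library) stood 0.23 below the average of the 6 libraries and whose summed FPKM was 43.0 there and 45.7 to 53.1 elsewhere. None of the 16 endothelial markers was at 0 in any library, 9 had a higher and 7 a lower mean with EFV, and 0 passed an unadjusted p of 0.05 by edgeR. With the endothelial marker level as a covariate the log2 fold changes of Tek and Tie1 were -0.13 and -0.17, and 0 of 10 members passed either threshold. The part of endothelial content in the value of any single gene was not tested beyond this.

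**Figure D3:**
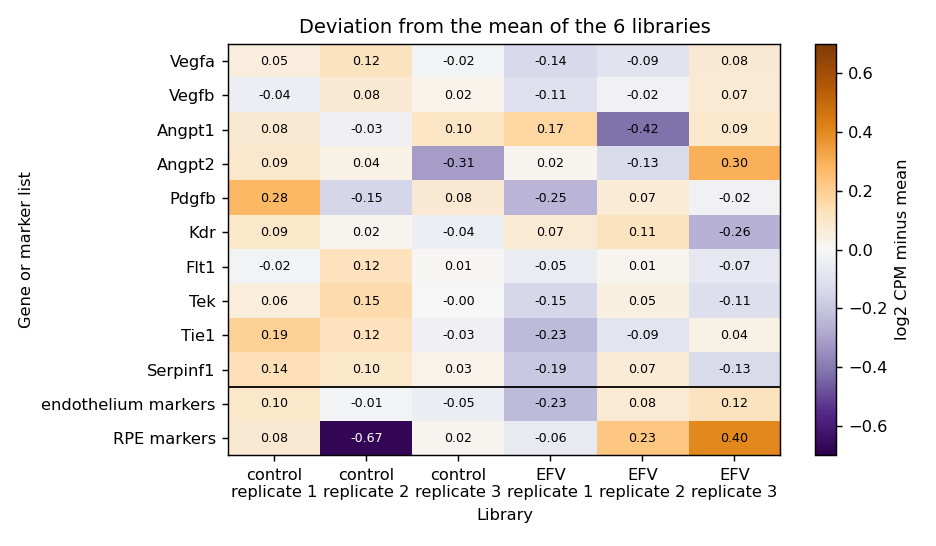
Log2 CPM of each gene minus its mean over the 6 libraries (rows) in each library (columns), with the endothelial and RPE marker levels below the line; purple is below and orange above the mean. EFV replicate 1 is purple for Vegfa (-0.14), Tie1 (-0.23) and the endothelial markers (-0.23), and control replicate 2 is purple for the RPE markers (-0.67).

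Ratios of 2 genes of the same library are free of library scaling and were compared between groups for 7 pairs by an exact permutation test, two-sided, in which 3 libraries against 3 cannot give a p under 0.1. The Angpt2 to Angpt1 ratio, which sets the ligand that opposes Tek against the one that activates it, was 4.18, 4.44 and 3.14 in the controls and 3.73, 5.26 and 4.89 with EFV. Its log2 difference of 0.24 had an exact p of 0.4 (0.84 adjusted by Benjamini-Hochberg over the 7 ratios), with Angpt1 resting on few counts. It was 0.089 without control replicate 3 and 0.39 without EFV replicate 1. The Kdr to Flt1 ratio was 3.00, 2.58 and 2.69 in the controls and 3.04, 2.97 and 2.44 with EFV, a log2 difference of 0.03 with an exact p of 0.9. Both ratios overlapped between groups.

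The Vegfa to Vegfb ratio was the most even of the 7, at 1.46, 1.41 and 1.34 in the controls and 1.34, 1.31 and 1.38 with EFV, with a log2 difference of -0.06 and the smallest exact p of the 7, 0.2. The Vegfa to Serpinf1 ratio, of growth factor to inhibitor, ran from 25.6 to 33.5, both ends being EFV libraries. Its log2 difference was 0.07 with an exact p of 0.6. The Vegfa to Kdr ratio ran from 1.68 to 2.50, again with both ends in EFV libraries, as EFV replicate 3 had the highest Vegfa and the lowest Kdr in FPKM, and its log2 difference was -0.05 with an exact p of 0.9. The Tie1 to Tek ratio (0.542 to 0.664) and the ratio of Pdgfb to its receptor Pdgfrb (0.299 to 0.368) differed by -0.04 and -0.08 on the log2 scale, with an exact p of 0.6 and 0.4.

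**Figure D4:**
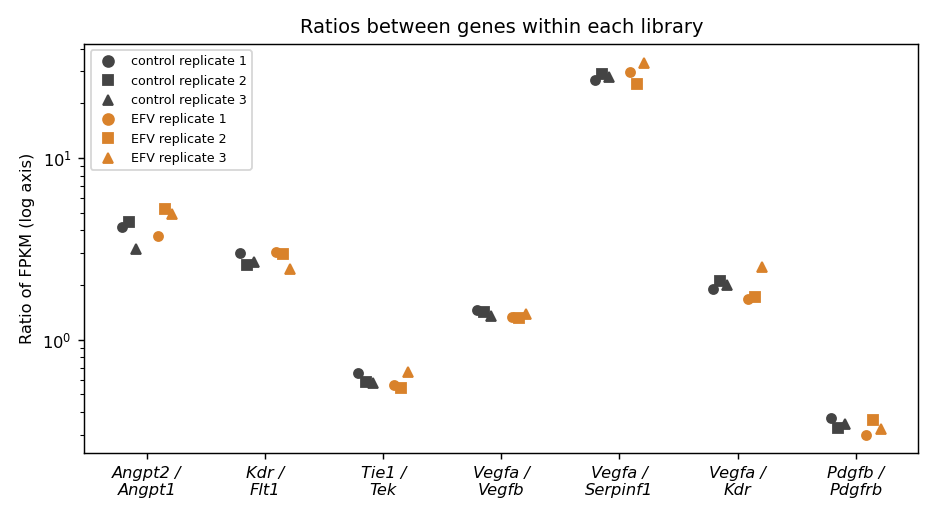
Ratio of FPKM between the 2 genes of each pair (log axis) in each library, control in grey and EFV in orange, with the replicate given by the symbol. Grey and orange overlap for all 7 pairs, including Angpt2 to Angpt1 with its log2 difference of 0.24.

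The gene length that RSEM gives is weighted by the isoforms it finds in a library, so it is a readout of isoform use apart from the level. It is an estimate from the reads of that library. Vegfa, with 11 transcripts in the files, had a weighted length of 3138.90, 3125.52 and 3123.76 bases in the controls and 3139.09, 3119.85 and 3110.42 bases with EFV. The groups overlapped, the mean difference was -6.27 bases and the exact permutation p was 0.6. The whole range of 28.7 bases is short beside the exons of 72 and 132 bases printed above, but the length sums over all transcripts and does not say which exon a difference came from. Vegfb, with 2 transcripts, ranged over 9.37 bases and Kdr, with 2, over 48.0 bases, with exact p of 0.9 and 1.0.

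Tek, with 3 transcripts, had a weighted length of 4699.69 and 4699.98 bases in control replicates 1 and 2 and 4611.66 in control replicate 3, against 4700.47, 4702.00 and 4699.99 with EFV. The groups did not overlap, but control replicate 2 at 4699.98 and EFV replicate 3 at 4699.99 bases all but met. Tek had 132 to 152 counts per library. The exact permutation p was 0.1, the smallest possible, or 0.4 adjusted over the 4 genes whose length varied by more than 1 base. The difference of 30.4 bases rested on control replicate 3, the library with the high lens markers, and was 0.985 bases without it. The part of the lens in this value was not tested. Angpt1 had 2 transcripts and a length constant within 0.02 bases, and Flt1, Tie1, Angpt2, Pdgfb and Serpinf1 had 1 transcript each, so this readout says nothing of their isoforms.

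The genes around these members were listed by their role in the pathway, 84 in all, of which 79 were tested. Earlier results of these data were known when the lists were made, so the counts are a description. Of the 79, 38 had a higher and 41 a lower mean with EFV, 0 passed an adjusted p of 0.05 by edgeR, 4 an unadjusted p of 0.05 (background 3.04%), and 12 had groups that did not overlap (background 8.14%). The median log2 fold change was -0.0011. The genes past the unadjusted threshold were Svep1, Thbs1, Sema3e and Egln1, the first pair higher and the others lower with EFV. All 4 are also in the list of changed genes that the study drew from these same libraries, so their calls here are not independent of it.

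The other VEGF ligands and receptors (Vegfc, Vegfd, Pgf, Flt4, Nrp1 and Nrp2) gave 0 of 6. The co-receptor Nrp2 was the most abundant, at 3.48 ± 0.122 FPKM in the controls and 3.47 ± 0.216 FPKM with EFV. Flt4, the receptor of lymphatic vessels, was at 1.18 ± 0.130 and 1.05 ± 0.115 FPKM, with a log2 fold change of -0.19 (SE 0.14). Vegfd, at 0.13 to 0.58 FPKM, had the widest log2 difference of the 6, 0.46 (SE 0.48).

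Of the other angiopoietin and TIE genes, 1 of 6 passed the unadjusted threshold (background 3.04%). Groups did not overlap for 4 of 6 (background 8.14%), in both directions. Svep1, a large matrix protein that binds Tie1, was higher, at 0.01, 0.03 and 0.02 FPKM in the controls and 0.04, 0.06 and 0.07 FPKM with EFV, with a log2 fold change of 1.50 (SE 0.45), an unadjusted p of 0.00878 and an adjusted p of 0.999 by edgeR. Svep1 was at 0.07 FPKM or less in every library, and its unadjusted p by edgeR was 0.0331 or less whichever library was left out. The filter of 10 counts in 3 or more libraries can be met by the EFV group alone. Whether the controls reached that count for Svep1 was not tested, and leaving out libraries does not settle it. Ptprb, the phosphatase VE-PTP that silences Tek, was at 1.42, 1.37 and 1.36 FPKM in the controls and at 1.32, 1.19 and 1.27 FPKM with EFV, all EFV libraries below all controls, with a log2 fold change of -0.16 (SE 0.07) and an unadjusted p of 0.0524 (adjusted 0.999 by edgeR). Tnip2, at 13.2 ± 0.635 and 11.8 ± 0.600 FPKM (SD, n = 3), was the most abundant of the 6. Its log2 fold change in normalised counts was -0.08 (SE 0.04), a smaller difference than that in FPKM. Angpt4, an activator of Tek that was named after its values were seen because its groups did not overlap, was at 0.257 ± 0.0737 and 0.167 ± 0.0231 FPKM, with a log2 fold change of -0.64 (SE 0.35).

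The other PDGF genes gave 0 of 5, with log2 fold changes between -0.06 and 0.14. Pdgfrb, the pericyte receptor of PDGF-B, was at 3.43 ± 0.324 FPKM in the controls and 3.33 ± 0.161 FPKM with EFV, and the most abundant of the 5 was the ligand Pdgfa, at 3.55 ± 0.379 and 3.65 ± 0.0814 FPKM. Signal transduction below the VEGF receptors gave 0 of 26, between -0.15 and 0.09. The smallest unadjusted p there was 0.0727 by edgeR (adjusted 0.999), for the focal adhesion protein Pxn at a log2 fold change of -0.10 (SE 0.05), and the most abundant gene was the small GTPase Cdc42, at 104 ± 3.68 and 103 ± 3.05 FPKM. The marker sums of pericytes and mural cells ran from 20.1 to 23.3 FPKM over the libraries.

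Of the Notch and tip cell genes, which decide which endothelial cell leads a sprout, 11 of 14 were tested and 0 passed. Esm1, Aplnr and Plaur had too few reads, at no more than 0.23 FPKM in any library. Apln, the apelin ligand of tip cells, was at 0.69, 0.88 and 0.79 FPKM in the controls and 0.64, 0.59 and 0.56 FPKM with EFV, with every EFV library below every control, a log2 fold change of -0.41 (SE 0.19) and an unadjusted p of 0.0629 (adjusted 0.999 by edgeR). The most abundant was the Notch ligand Jag1, at 18.8 ± 1.26 and 20.1 ± 1.13 FPKM. The Norrin receptor genes, which direct the growth of retinal capillaries, gave 0 of 6, with log2 fold changes from -0.02 to 0.21 and with Ndp, Norrin itself, at 4.21 ± 0.642 and 4.34 ± 0.808 FPKM.

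Of the other inhibitors of vessel growth, 10 of 12 were tested and 2 passed the unadjusted threshold (background 3.04%), in opposite directions. Groups did not overlap for 3 of the 10 (background 8.14%). Thbs1, the inhibitor thrombospondin-1, was higher, at 0.69, 0.51 and 0.72 FPKM in the controls and 0.91, 0.99 and 0.77 FPKM with EFV, with a log2 fold change of 0.46 (SE 0.18), an unadjusted p of 0.0286 and an adjusted p of 0.999 by edgeR. Sema3e, a semaphorin that repels endothelial cells, was lower, at 3.85, 3.54 and 3.61 FPKM in the controls and 3.26, 3.49 and 2.89 FPKM with EFV, with a log2 fold change of -0.21 (SE 0.08), an unadjusted p of 0.0332 and an adjusted p of 0.999 by edgeR. Thbs1 no longer passed without control replicate 2, EFV replicate 1 or EFV replicate 2, where its unadjusted p by edgeR reached 0.103. Sema3e no longer passed without control replicate 1 or 3 or EFV replicate 1 or 3, where its unadjusted p by edgeR reached 0.108. The most abundant gene of the list was Sema3f, at 59.5 ± 1.29 and 61.4 ± 4.23 FPKM.

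The hypoxia regulators of Vegfa gave 1 of 9 (background 3.04%), and 3 of 9 had groups that did not overlap (background 8.14%), in both directions. Egln1, the oxygen sensor that marks HIF proteins for degradation, was lower, at 33.6, 34.3 and 34.7 FPKM in the controls and 30.6, 32.6 and 32.0 FPKM with EFV, with a log2 fold change of -0.12 (SE 0.04), an unadjusted p of 0.0193 and an adjusted p of 0.999 by edgeR. It no longer passed without control replicate 2, control replicate 3 or EFV replicate 1, where its unadjusted p by edgeR reached 0.0777. Hif1a, the hypoxia-inducible factor, was the most abundant gene of this list at 153 ± 3.01 and 157 ± 10.1 FPKM, and its log2 fold change was 0.01 (SE 0.05). Egln3, a relative of Egln1, was at 2.40 ± 0.254 and 2.70 ± 0.178 FPKM, with a log2 fold change of 0.16 (SE 0.12).

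**Figure D5:**
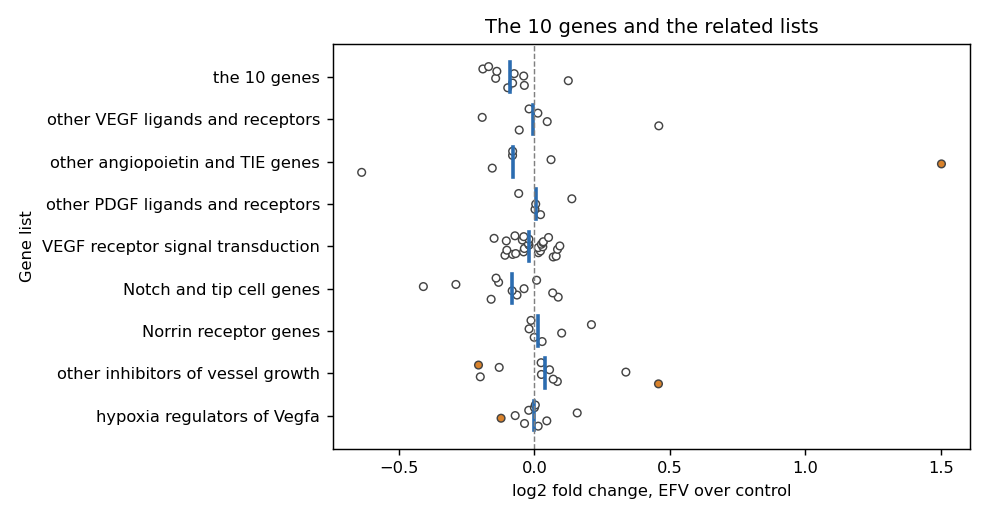
Log2 fold change of EFV-treated over control for each tested gene of the 10 and of the related lists; filled points had an unadjusted p of 0.05 or less by edgeR and blue bars are list medians. The 4 filled points are Svep1 (1.50), Thbs1 (0.46), Sema3e (-0.21) and Egln1 (-0.12), and none is among the 10 genes, whose median is -0.09.

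The genes whose pattern over the 6 libraries was nearest to that of a member were sought among 13173 genes with a mean of at least 1 FPKM, by the root-mean-square (RMS) difference of centred log2 CPM, as a description with no test. Nearest to Vegfa were Smtn (RMS difference 0.0109), Polr2i (0.0201) and Coil (0.0230), against a deviation of 0.0924 of Vegfa itself. Nearest to Kdr were Naa25 (0.0321), Ppil4 (0.0366) and Nradd (0.0367), against 0.127 of Kdr itself. Nearest to Tek were Adcyap1r1 (0.0243), Ylpm1 (0.0297) and Uqcrb (0.0305), and nearest to Serpinf1 were Adcyap1r1 (0.0341), Cystm1 (0.0429) and Tek (0.0465). Tek was thus the third nearest gene to Serpinf1, both being lowest in EFV replicate 1.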

How the data were processed

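The members and gene lists were chosen with earlier results of these data known. The authors made the deposited expected counts per gene with RSEM 1.2.12 after filtering the reads and aligning them with Bowtie2 2.2.5 to mouse build mm10; HISAT2 2.0.4 is named in the submitters' notes without a role. The deposited FPKM values were made by the authors from the same counts, with the gene length listed beside them, and are rounded, the smallest listed being 0.01; a gene absent from a library was taken as 0. The annotation release, strandedness and read filter settings are not given in the sources used here. Expected counts were rounded to whole numbers, and genes that reached 10 counts in 3 or more libraries were tested with edgeR 4.0.16 (R 4.3.3): quasi-likelihood test, TMM scaling, group as the only term, two-sided, Benjamini-Hochberg adjustment over all genes tested. The scripts were tested on simulated data. Gene positions are those of RefSeq for GRCm38. Ratios and lengths were compared with SciPy 1.17.1 (Python 3.11.15). A Poisson model with counting error as the only error was an alternative, after the distribution named by the study but without its limit on fold change, as were DESeq2 1.42.0, limma 3.58.1 on log2 FPKM, other scalings and filters, marker covariates, a replicate block and leaving out each library. Named beside the members were, from each pathway list, at most 3 genes with the smallest unadjusted p and the most abundant one, 3 genes nearest in pattern to Vegfa, Kdr, Tek and Serpinf1, and the most abundant or defining cell markers. At 23455167 to 24590278 counts per library, counting error was 1.52% of the value for Vegfa and 19.2% for Angpt1. Intervals rest on the spread between pools of 3 against 3, drawn toward that of all genes (6.99 to 8.99 total degrees of freedom). The SE was derived from the fold change and the test statistic.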

Additional observations from a re-analysis of the deposited data

How the results depend on the processing

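None of the 10 genes passed an adjusted p of 0.05 with edgeR, DESeq2 or limma under the other scalings, filters and covariates. A Poisson model by construction leaves out the spread between pools, and was fitted here without the limit on fold change that the study set. It gave 1 of 10 by adjusted p (Vegfa, log2 fold change -0.10, adjusted p 1.88e-06) and 3 of 10 by unadjusted p (Vegfa, Flt1 and Kdr). By the same thresholds it gave 13 and 19 of the 79 related pathway genes tested, and 2043 and 3901 of all 15537 genes tested. Calls this frequent over all genes are not particular to the members. DESeq2 gave 11 of all genes by adjusted and 270 by unadjusted p. The cause of the difference from edgeR was not tested. Leaving out each library in turn gave 0 to 1 of all genes by adjusted p (1 without EFV replicate 1, an unnamed BGI_novel gene) and 389 to 576 by unadjusted p; 0 to 1 of the 10 by unadjusted p (Vegfa, without EFV replicate 3); and 2 to 5 pathway genes by unadjusted p, the 2 without EFV replicate 1.

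The libraries were not treated as paired by replicate number, since no label ties them. Same-numbered libraries had correlated deviations of 0.124, 0.0729 and 0.102, and each correlated best with its own number. Between unlike numbers the correlation ran from -0.0976 to -0.00917. Deviations from a group mean cancel within the group, so positive values for like numbers go with negative ones for unlike numbers, and the contrast is partly built in. Whether the numbers tie the libraries was not settled. The fit with the replicate block gave 0 genes by adjusted p and 520 by unadjusted p, with 0 and 0 of the 10 and 0 and 3 of the pathway genes (Thbs1 no longer passed), and no other call among the 10 or the pathway genes changed.

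Signs of small differences turned. Leaving out 1 library took the log2 fold change from -0.085 to 0.0054 for Vegfb, -0.20 to 0.080 for Angpt1, -0.0040 to 0.22 for Angpt2 and -0.11 to 0.068 for Kdr, and Kdr was 0.0049 with the RPE covariate. The log2 difference of ratios ran from -0.030 to 0.13 for Kdr to Flt1, -0.13 to 0.020 for Tie1 to Tek, -0.023 to 0.17 for Vegfa to Serpinf1 and -0.24 to 0.049 for Vegfa to Kdr. Lengths ran from -14.3 to 0.0767 bases for Vegfa, -2.50 to 1.74 for Vegfb and -14.4 to 9.55 for Kdr; by the median in place of the mean, Vegfb differed by 2.41 and Kdr by 0.46 bases. Angpt1 and Tie1 fell under the filter of a mean FPKM of 1 and have no value there.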
